A study of Mus musculus with 2 samples.

Results

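The 10 genes tied to glucocorticoid hormone and muscle wasting are described here across the cell classes of 2 mouse single-cell RNA libraries. They are Fkbp5, Tsc22d3, Per1, Klf9, Cebpd, Sgk1, Mt1, Mt2, Fbxo32 and Foxo1, and all 10 members were listed in both deposited matrices of 55416 genes. They were read in barcodes that showed 200 or more genes and no more than 10% mitochondrial UMIs, a rule that 2243 muscle and 8194 lung barcodes met. One library came from gastrocnemius muscle and the other from lung. Per the labels each was made from CD45+ cells held back on magnetic beads after digestion with Liberase TL and DNase I, the mice were "TB mice", and the genotype was given as "CAC mouse model" for both tissues. Those short names are not spelled out in the labels, which give no treatment, no age and no number of mice, and neither library is labelled as free of tumour. The study addressed muscle wasting in tumour-bearing mice and its link to anti-PD-L1, and its bulk muscle RNA from mice given IgG or antibodies to PD-L1 or CD8a was not analysed here. With 1 library per tissue there is no replicate and no test, every interval below is an exact 95% interval that covers counting error only, and no value says whether glucocorticoid exposure differed between any cells.

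Glucocorticoids such as corticosterone bind the glucocorticoid receptor, which moves to the nucleus and switches on a set of genes shared by many cell types. Fkbp5 (a chaperone that dampens the receptor), Tsc22d3 (also called GILZ, an anti-inflammatory leucine-zipper protein), Per1 (a clock repressor), Klf9 (a zinc-finger factor), Cebpd (a bZIP factor of the acute phase), Sgk1 (a kinase of salt and survival pathways) and the zinc-binding metallothioneins Mt1 and Mt2 are well-known members of that set. In muscle fibres the hormone also acts through Foxo1, a forkhead factor that insulin signalling holds out of the nucleus, and through Fbxo32, which encodes the ubiquitin ligase subunit atrogin-1. Each of these genes also answers to other signals, among them metals for the metallothioneins, inflammation for Cebpd and the daily clock for Per1.

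Promoter stretches are shown for Sgk1, the member with the full hormone palindrome, and for Mt1 and Mt2, whose windows held the metal motif several times. RefSeq windows on build GRCm38.p6, which run from 250 bases before a gene's start to 50 after it, were at hand for 8 of the 10 members (16 windows, since some genes have several starts), and Cebpd and Fbxo32 had none. The first 280 bases of each of the 3 windows are printed, all on the plus strand, with the motif in capitals. In Sgk1 the capitals mark the full palindrome that the glucocorticoid receptor binds, AGAACA, then any 3 bases, then TGTTCT. In Mt1 and Mt2 they mark the core of the metal response element, TGCACNC or TGCGCNC, on either strand.
Sgk1, window chr10:21993640-21993939: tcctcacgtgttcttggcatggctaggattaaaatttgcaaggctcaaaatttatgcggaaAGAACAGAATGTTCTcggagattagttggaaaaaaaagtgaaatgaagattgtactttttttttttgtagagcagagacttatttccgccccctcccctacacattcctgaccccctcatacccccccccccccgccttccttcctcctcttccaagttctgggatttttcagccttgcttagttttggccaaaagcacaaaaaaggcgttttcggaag
Mt1, window chr8:94178839-94179138: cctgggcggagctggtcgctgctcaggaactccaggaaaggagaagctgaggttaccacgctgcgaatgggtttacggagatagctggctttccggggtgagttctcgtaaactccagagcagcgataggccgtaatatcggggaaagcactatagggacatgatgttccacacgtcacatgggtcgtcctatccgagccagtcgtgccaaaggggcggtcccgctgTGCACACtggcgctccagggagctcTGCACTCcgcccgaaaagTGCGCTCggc
Mt2, window chr8:94172368-94172667: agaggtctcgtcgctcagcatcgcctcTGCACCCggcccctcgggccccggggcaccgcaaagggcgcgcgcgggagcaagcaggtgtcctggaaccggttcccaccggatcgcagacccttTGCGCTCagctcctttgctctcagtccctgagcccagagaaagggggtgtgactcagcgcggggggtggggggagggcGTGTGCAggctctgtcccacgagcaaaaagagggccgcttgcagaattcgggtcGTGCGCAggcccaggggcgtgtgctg
The palindrome was rare, being found in 3 of 32851 windows of that length (0.00913%), and among the members it was found in this Sgk1 window alone. The metal core was common, in 25.7% of windows, and was present 3 times in the Mt1 window, 4 times in the Mt2 window and once each in a Per1 window and another Sgk1 window. The shorter letters TGTTCT, the right arm of the palindrome and therefore overlapping it, stood in 19.0% of all windows and in 4 of the members' 16 windows, which belonged to Sgk1 and Tsc22d3. The E-box CACGTG (7.15% of windows) stood in the Fkbp5 window, in one of the Per1 windows and in the Sgk1 window printed above. The forkhead letters GTAAACA (3.65% of windows) stood in the Klf9 window, and the letters TGACGTCA (1.79%), searched as the cyclic AMP response element, stood in no member's window. A match is a run of letters and says nothing of binding in these cells.

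The muscle library held 14056163 UMIs over 5547 barcodes and the lung library 34751225 UMIs over 8481 barcodes, and 2143 muscle and 7638 lung cells were kept after doublet removal. Median depth was 3054 UMIs in kept muscle cells and 2136 in kept lung cells, and 20 kept barcodes were shared by the libraries. In muscle 3301 barcodes were over the mitochondrial limit, against 273 in lung. The CD45 label held for lung, where 6100 cells (79.9%, 78.9 to 80.8) were leukocytes, but not for muscle, where 324 cells (15.1%, 13.6 to 16.7) were. The CD45 gene Ptprc was at 554 CPM (a gene's summed UMIs over all UMIs of a class, the usual depth-scaled count) in muscle leukocytes and at 1.33 CPM in muscle endothelium. Classes were rebuilt from marker genes, and each name below stands for cells that are like that type. Between 6 and 10 markers were listed for each muscle class outside the leukocytes, and all of them were at least 2-fold up except Btnl9 in capillary cells. In the joint clustering 1 cluster with 140 muscle cells was named smooth muscle, and it was merged with the pericyte cluster as mural cells. When the mural cells were clustered again no cluster kept the smooth muscle name, so they are the 53 pericytes plus 158 unnamed cells.

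Fkbp5 was spread widely over the muscle classes and was lowest in pericytes and neutrophils. It was at 535 CPM (494 to 579) in fibroblasts, 386 in monocytes, 316 in Schwann cells, 309 in macrophages, 302 in tenocytes, 245 in satellite cells and 199 in dendritic cells, and at 97.4 in pericytes and 78.2 in neutrophils. In the vessel lining it was at 287 CPM in arterial, 237 in venous and 450.3 in capillary cells, and at 793 in endothelial cells that took no subtype name. Between monocytes and satellite cells each interval overlapped that of the next class in the order, so neighbours there cannot be told apart, while the monocyte interval (339 to 437) lay above that of satellite cells (176 to 331). All lung classes lay lower than muscle fibroblasts, from 36.8 CPM in migratory dendritic cells to 263 in macrophages.

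Tsc22d3 was set apart by 1 class, the tenocytes, at 1981 CPM (1799 to 2177). Fibroblasts at 793, Schwann cells at 787 and capillary endothelium at 713 CPM followed, with intervals that overlapped one another. It was at 406 CPM in pericytes, 330.0 in macrophages, 326 in satellite cells, 308 in neutrophils, 163 in dendritic cells and 155 in monocytes, and at 249.9 in arterial and 387 in venous cells. In lung it was highest in B cells, at 352 CPM, and lowest in migratory dendritic cells, at 32.6.

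Per1 was the member for which neutrophils stood highest, at 299 CPM (231 to 381) in muscle and 233 (221 to 246) in lung. The intervals of pericytes at 216 and Schwann cells at 186 CPM overlapped them. The other muscle classes ranged between 36.3 CPM in macrophages and 148 in capillary endothelium. The lowest lung class was the epithelium, at 36.2 CPM.

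Klf9 separated structural cells of muscle from leukocytes of either tissue. It was at 1286 CPM (1140 to 1445) in tenocytes, 909 in pericytes, 714 in Schwann cells, 692 in fibroblasts and 507 in satellite cells, and at 299 in arterial, 276 in venous and 649.8 in capillary endothelium. The muscle leukocytes lay between 13.8 CPM in neutrophils (3 counts) and 141 in monocytes, and the lung leukocytes between 13.1 in dendritic cells and 123 in macrophages. Every interval of a structural muscle class lay above every interval of a leukocyte class.

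Cebpd was the member with the steepest gradient among those that were not metallothioneins. It was at 5382 CPM (5040 to 5740) in satellite cells and 5023 (4730 to 5329) in tenocytes, whose intervals overlapped, then at 4067 in pericytes and 2367 in fibroblasts. Venous endothelium stood at 1145 CPM, arterial at 860.3 and capillary at 493, with Schwann cells at 462. In Schwann cells 78.1% of the Cebpd counts lay in the 5% of cells with the most. Among muscle leukocytes it was highest in neutrophils, at 244 CPM, and lowest in dendritic cells, at 56.0. No lung class exceeded the 227 CPM of lung endothelium, and lung lymphocytes and epithelium were at or under 12.0 CPM.

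Sgk1 had its 2 highest levels in cells of different tissues and origin, at 551 CPM (507 to 598) in muscle capillary endothelium and 544 (514 to 575) in lung alveolar macrophages, a class in which 6 of its 8 markers were up and Siglecf and Cidec were not. In muscle it was next at 316 CPM in Schwann cells, 284 in tenocytes, 252 in venous endothelium and 212 in arterial endothelium. It was at 169 CPM in satellite cells and 143 in fibroblasts, and every other named muscle class, pericytes included, was at or under 70.6 CPM. Lung B cells held the lowest level, 12.5 CPM.

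The metallothioneins Mt1 and Mt2 had the widest ranges of all members. Mt1 was at 15453 CPM (14937 to 15983) in tenocytes and 15411 (14829 to 16010) in satellite cells, at 5368 in Schwann cells, 4835 in pericytes and 4749 in fibroblasts. It was at 2627 CPM in arterial, 556 in venous and 57.1 (43.5 to 73.7) in capillary endothelium. The capillary level was the lowest of any class, with an interval that overlapped those of lung endothelium and muscle neutrophils, while the arterial level lay above every muscle leukocyte class. Muscle leukocytes were at 1828 CPM in dendritic cells, 1596 in macrophages, 762 in monocytes and 73.6 in neutrophils, and the highest lung class was the alveolar macrophages at 3061. Mt2 followed with 4310.0 CPM in satellite cells, 3143 in tenocytes, 1241 in Schwann cells, 1118 in fibroblasts and 487 in pericytes. It was at 537 CPM in arterial, 224 in venous and 18.4 in capillary endothelium, and neutrophils of muscle held 1 count.

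Fbxo32 was sparse everywhere, with 134 CPM (84.9 to 201) in satellite cells as its highest level, from 23 counts in 9 cells. It was at 50.3 CPM in tenocytes, 48.7 in pericytes, 36.5 in fibroblasts and 24.3 in Schwann cells, and the 158 unnamed mural cells were at 95.4 CPM from 44 counts. The intervals of neighbouring classes overlapped along the whole order, so no neighbours in it can be told apart. Muscle fibres, where atrogin-1 is best known, were not a class here. Foxo1 was highest in arterial endothelium, at 343 CPM (299.7 to 390.0), followed by satellite cells at 291, lung B cells at 276, muscle tenocytes at 229 and fibroblasts at 216, each overlapping the next. With other processing settings the arterial level lay between 115 and 438 CPM, so its first place depends on the setting. It was at 154 CPM in venous and 75.5 in capillary endothelium and at 54.1 in pericytes. No Foxo1 UMI was found in the 59 muscle neutrophils, where 3 counts would be 13.8 CPM, and lung neutrophils were at 4.65 CPM.

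**Figure D1:**
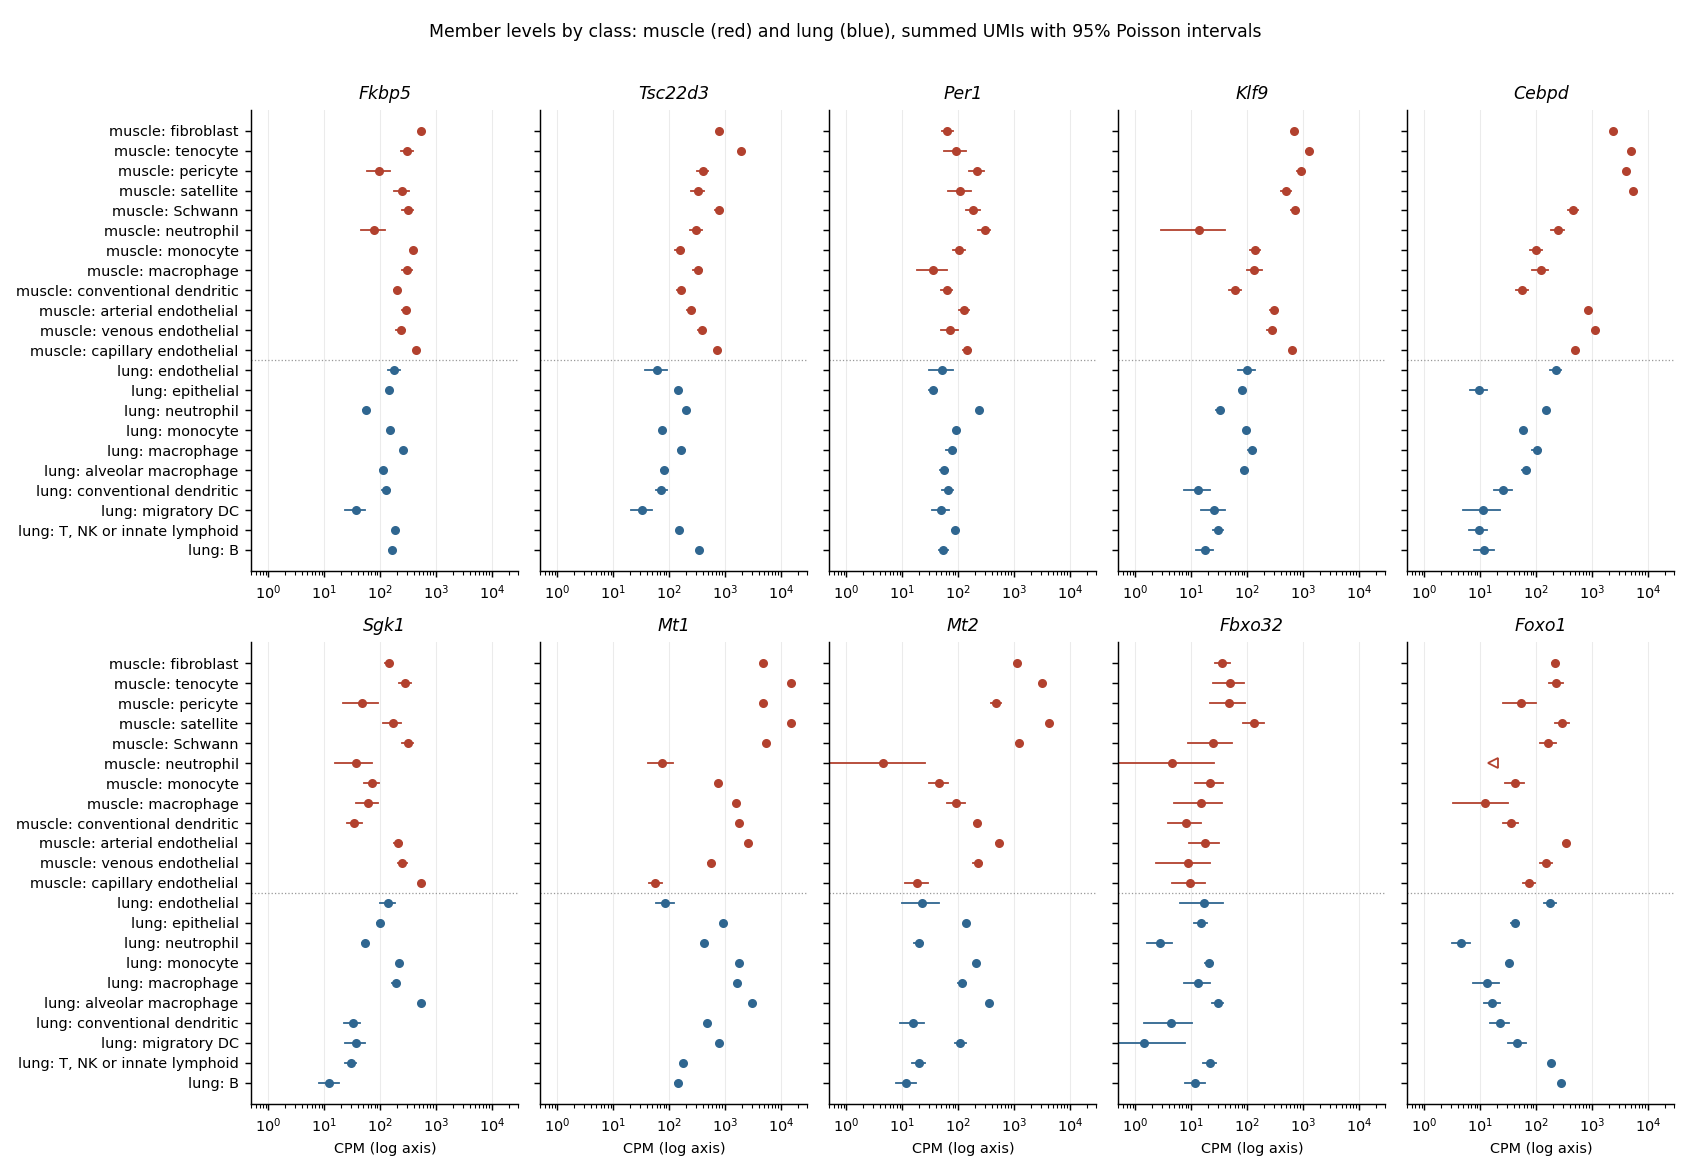
Level of each of the 10 members in CPM (log axis) by class, with muscle classes in red above the dotted line and lung classes in blue below it. Points are summed UMIs over all UMIs of a class, bars are 95% Poisson intervals, and the open triangle is the upper limit where no UMI was found. Mt1 runs from 57.1 CPM in muscle capillary endothelium to 15453 CPM in tenocytes, while Per1 peaks in the neutrophils of both tissues.

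Levels in CPM were carried by different shares of cells, and depth differed between classes. Each cell of at least 1000 UMIs was therefore thinned to 1000 UMIs before cells with a UMI were counted, and shallower cells were left out. In lung 216 of 416 epithelial cells and 2322 of 2751 neutrophils were deep enough. Mt1 was then found in 80.4% of tenocytes, 57.4% of satellite cells, 55.3% of fibroblasts and 30.8% of arterial cells, against 6.38% of capillary cells. Before thinning it was in 95.7% of tenocytes, 70.4% of satellite cells and 11.7% of capillary cells. The lowest thinned share was 3.45%, in muscle neutrophils at a median of 3214 UMIs, and the capillary share, at a median of 2855.5 UMIs, is close enough to it that it is not read as expression. Cebpd was found in 73.9% of thinned tenocytes, 73.1% of pericytes and 68.5% of satellite cells, against 0.463% of lung epithelial cells. Tsc22d3 was found in 65.2% of thinned tenocytes and 47.4% of capillary cells. Foxo1 was found in 28.5% of thinned arterial cells and Fbxo32 in 9.26% of satellite cells, the highest share of each gene in any named class in the main setting. The Foxo1 share of tenocytes was 28.3%.

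Mt1 and Mt2 were mostly found in the same cells of the structural classes. Of 75 thinned fibroblasts with an Mt2 UMI, 64 (85.3%) also held an Mt1 UMI, while 55.3% of all thinned fibroblasts did. The same figures were 27 of 29 in tenocytes, 28 of 33 in satellite cells and 28 of 33 in arterial endothelium, against 1 of 7 in capillary endothelium. Their count ratio differed by class. Mt1 counts were 3.58 times Mt2 counts in satellite cells, 4.92 times in tenocytes, 4.25 times in fibroblasts and 9.93 times in pericytes, and in lung 8.65 times in alveolar macrophages and 21.4 times in neutrophils. The longest run of letters shared by the annotated Mt1 and Mt2 transcripts was 20 bases.

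**Figure D2:**
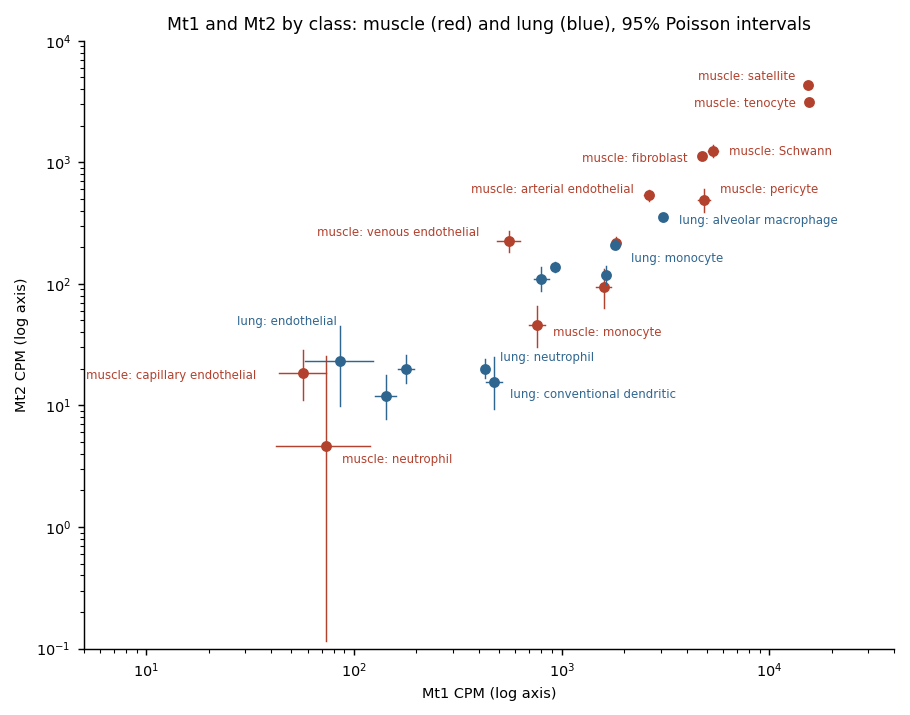
Mt2 level against Mt1 level in CPM (both log axes), one point for each named class of muscle (red) and lung (blue), with 95% Poisson intervals on both axes. Points without a name are the other named classes. Satellite cells and tenocytes of muscle lie at the top right, muscle capillary endothelium at 57.1 CPM Mt1 and 18.4 CPM Mt2 at the far left.

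Each muscle class was set against the 1167 pooled endothelial cells of muscle, the largest class. In that pool 91.2% of Mt1 and 87.1% of Mt2 counts lay in the 5% of cells with the most UMIs of the gene. A gene was called higher or lower by size when its CPM differed at least 2-fold, the interval of the ratio excluded 1 and the higher side held at least 30 counts. All 10 members held at least 30 counts over both sides in each of these 6 comparisons. In the comparisons below between endothelial subtypes and between tissues 8 to 10 did, and the rest could not be called. Over the 6 classes and 10 members, 21 of 60 values were called higher and 11 lower. Of all genes tested, 3.52% to 16.1% were called higher and 13.5% to 27.8% lower, depending on the class. Mt1 was called higher in all 6 classes and Cebpd in 4 of them, while Sgk1 was called lower in 4 and Fkbp5 in 3.

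Fibroblasts, which make the collagen matrix between fibres, had 5 members called higher and 1 lower, where 13.1% of all genes tested were called higher and 16.3% lower. Mt1 differed by 2.96 on the log2 scale (interval 2.89 to 3.03), Mt2 by 2.97 and Cebpd by 1.76, at 2367 CPM in fibroblasts and 699 CPM in endothelium. Sgk1 was the one called lower, by -1.32. Tsc22d3 at 1.02 and Fbxo32 at 1.01 (43 counts in fibroblasts, 68 in endothelium) lay at the limit of 2-fold, and the Fbxo32 call was lost in 7 alternatives and the Tsc22d3 call in 2. The median log2 difference was 0.84 over the members and -0.00 over all genes tested. Summed dissociation and stress genes were at 12237 CPM in fibroblasts and 15627 CPM in endothelium.

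Tenocytes, the matrix cells of tendon, had 5 members called higher and none lower, against 3.58% of genes called higher and 17.7% called lower, and their median difference was 1.52 over the members and -0.19 over all genes tested. Mt1 differed by 4.66 (4.58 to 4.74), Mt2 by 4.46, Cebpd by 2.84, Tsc22d3 by 2.34 (2.18 to 2.50) and Klf9 by 1.56 (1.37 to 1.75). Fkbp5 was not among them, at 302 CPM in tenocytes and 540.2 CPM in endothelium. With Leiden resolution 0.5 the Tsc22d3 difference was 1.33 and the Mt1 difference 3.40. Summed dissociation and stress genes were at 38295 CPM in these 46 cells and 15627 CPM in endothelium, and 12 of 20 such genes were called higher, led by Zfp36, Junb and Jun. Their part in the result was not tested.

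Pericytes, the contractile cells around capillaries, had 4 members called higher (4.29% of genes) and 3 lower (13.5%). Cebpd differed by 2.54, Mt1 by 2.98, Mt2 by 1.77 and Klf9 by 1.06, while Sgk1 differed by -2.87 (-4.002 to -1.94), Fkbp5 by -2.47 (-3.23 to -1.81) and Foxo1 by -1.95. The Sgk1 value rests on 9 pericyte counts, that of Fkbp5 on 18 and that of Foxo1 on 10. Of the 90 pericyte counts of Mt2, 66.7% lay in the 5% of cells with the most. The Mt2 call was lost with no doublets removed, at resolution 2 and with the members among the clustering genes, where it lay between 0.49 and 0.75, and the Klf9 call was lost in 2 alternatives. The unnamed mural cells, at 30101 CPM of the nuclear RNA Malat1 where pericytes had 9622, were at 319 CPM of Cebpd and 377 CPM of Mt1, outside the pericyte intervals. Stress genes summed to 40938 CPM in pericytes.

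Satellite cells, the Pax7-expressing stem cells of muscle, had 3 members called higher (3.52% of genes) and 2 lower (15.1%). Mt2 differed by 4.92 (4.76 to 5.08), Mt1 by 4.65 and Cebpd by 2.94, and Fkbp5 by -1.14 and Sgk1 by -1.07. Fbxo32 stood at 134 CPM in satellite cells and 18.2 CPM in endothelium, a difference of 2.88 (2.13 to 3.58), and was not called because its 23 counts were under the minimum of 30. Those counts lay in 9 cells, 65.2% of them in the 5% of cells with the most. Over the alternatives the difference ranged between 1.37 and 3.66. The 54 satellite cells also had the highest stress level of any class, at 58709 CPM, with 16 of 20 stress genes called higher, and the part of dissociation in these values was not tested. Without clusters above 10000 CPM of Malat1 the Fkbp5 difference was -0.32, no longer called.

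Schwann cells, the glia of peripheral nerve, had Mt1 (3.13, 3.03 to 3.23), Mt2 (3.12) and Tsc22d3 (1.01) called higher and none lower, against 7.05% and 14.2% of genes. The Tsc22d3 call at the 2-fold limit was lost in 3 alternatives. Pooled muscle leukocytes had Mt1 called higher (1.11) and 5 members lower, where 16.1% of genes were higher and 27.8% lower. Cebpd differed by -2.95, Sgk1 by -2.88, Foxo1 by -2.59, Klf9 by -2.31 and Fkbp5 by -1.14. The Mt1 and Fkbp5 calls in leukocytes were each lost in 3 alternatives, down to 0.17 for Mt1 at resolution 0.5 and to -0.31 for Fkbp5 without the Malat1-rich clusters.

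**Figure D3:**
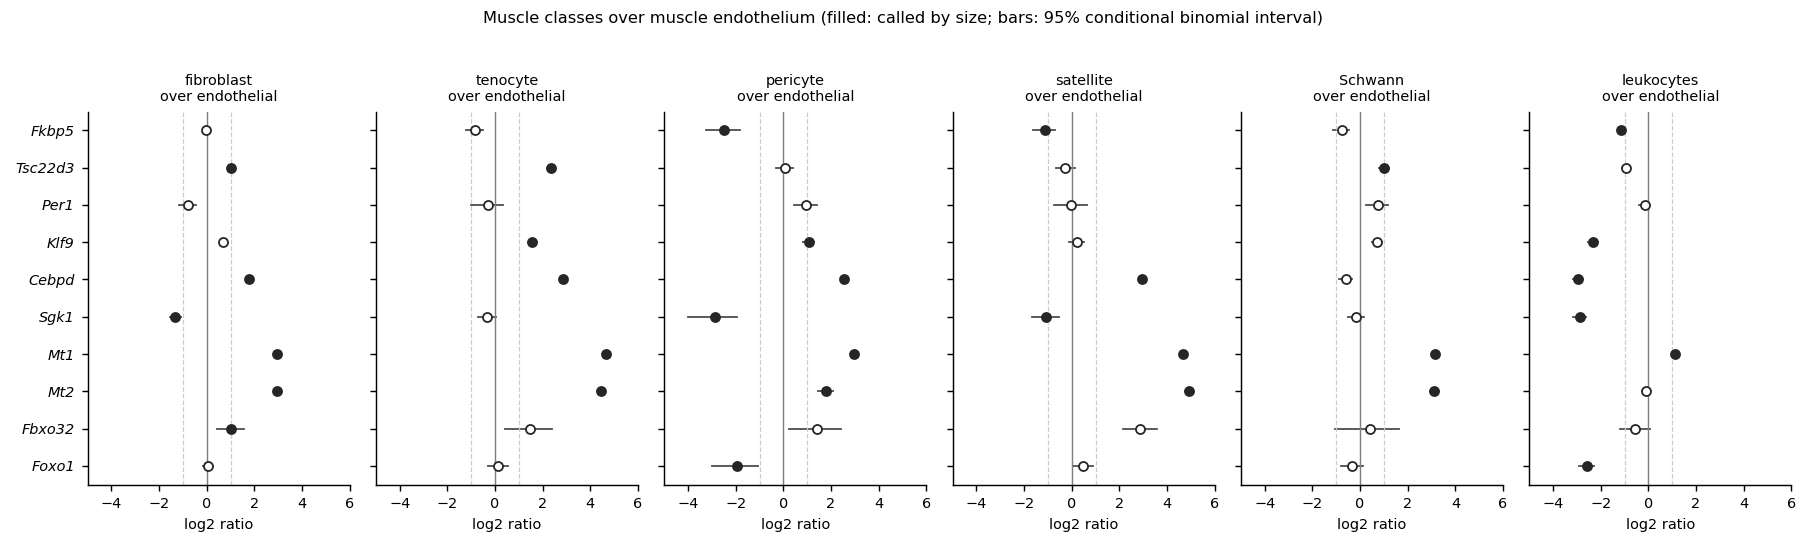
Log2 ratio of member CPM in 6 muscle classes over muscle endothelium, with 95% conditional binomial intervals. Filled points were called by size, open points were not, and dashed lines mark 2-fold. Mt1 lies to the right in all 6 panels, between 1.11 in leukocytes and 4.66 in tenocytes, and Sgk1 lies furthest to the left in pericytes, at -2.87, and Cebpd in leukocytes, at -2.95.

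Within the endothelium, arteries and veins differed most from capillaries in the metallothioneins. Arterial over capillary cells had 3 members called higher and 3 lower, where 12.9% of genes were higher and 13.9% lower. Mt1 differed by 5.52 (5.15 to 5.92), at 2627 CPM in arterial and 57.1 CPM in capillary cells, Mt2 by 4.87 (4.203 to 5.62) and Foxo1 by 2.18 (1.80 to 2.57). Since the capillary share of cells with Mt1 is not read as expression, the Mt1 value is a distance from a background level. Capillary cells held 19 Mt2 counts, with a UMI in 2.13% of thinned cells. The arterial Mt2 value and the venous Mt1 and Mt2 values below are therefore read in the same way. Tsc22d3 differed by -1.51, Sgk1 by -1.37 and Klf9 by -1.12. The Foxo1 difference was 0.61 without the Malat1-rich clusters and 0.67 at resolution 2, the Sgk1 call was also lost in those 2 settings, and the Klf9 call in those and 3 more. Venous over capillary cells had 4 called higher (5.63% of genes) and 3 lower (11.3%). Mt2 differed by 3.60, Mt1 by 3.28, Cebpd by 1.22 and Foxo1 by 1.03, and Klf9 by -1.24, Sgk1 by -1.13 and Per1 by -1.05. In venous cells 85.2% of Mt1 and 51.5% of Mt2 counts lay in the 5% of cells with the most UMIs of the gene. The same shares were 53.9% and 57.4% in arterial cells. The Cebpd and Foxo1 calls were lost with some settings, with values down to 0.87 for Cebpd and 0.77 for Foxo1. Stress genes summed to 27459 CPM in arterial, 13379 in venous and 9966 in capillary cells, and 17 of 20 were called higher in arterial over capillary cells. Their part in the metallothionein difference was not tested.

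Muscle clusters of the same broad class differed in Malat1, a long RNA kept in the nucleus, and the members differed with it. In 4 pairs of clusters the Malat1 difference was between 1.91 and 2.68 on the log2 scale, and the pairs were chosen after the clusters were seen. Fkbp5 was higher in the Malat1-rich cluster of all 4 such pairs. It was at 1292 CPM in the Malat1-rich unnamed endothelial cluster and 450.3 CPM in capillary cells (where 24.9% of genes were called higher and 28% lower), and at 461 and 188 CPM in the rich and poor arterial clusters (28.1% and 25.5%). In fibroblasts it was at 1273 CPM in the rich cluster and 243 CPM in the poor one (26.9% and 27.8%), and in monocytes at 898 and 121 CPM (31.1% and 20.8%). Zbtb16, a transcription factor and another hormone-responsive gene, was called higher in the rich cluster of each pair, with 3374 CPM in the rich endothelial cluster and 519 CPM in capillary cells.

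Other members split in the same or the opposite sense. Foxo1 was called higher in the Malat1-rich endothelial, arterial and fibroblast clusters, at 741 CPM against 115 CPM in the arterial pair and 493 against 105 in the fibroblast pair. Cebpd was lower in the rich cluster of all 4 pairs, with 119 CPM against 1283 CPM in arterial cells and 344 against 3169 in fibroblasts. Mt1 was lower in the rich arterial cluster (342 against 3932 CPM), the rich fibroblast cluster (613 against 6389) and the rich monocyte cluster (286 against 1008), and Tsc22d3 in the first 3 pairs. The 2 Schwann clusters, both Malat1-rich at 22456 and 16618 CPM, went the other way for Fkbp5 (195 and 557 CPM) and Mt1 (7343 and 1441 CPM). Cebpd, at 30.5 and 1320 CPM, was again lower in the richer cluster (21.3% of genes higher, 10.9% lower). The mural clusters, which were not among the pairs, did not follow one order either. Fkbp5 was at 476 CPM in a cluster with 25267 CPM of Malat1 and 89.2 CPM in one with 58376, against 97.4 CPM in pericytes with 9622 and 144 CPM in a cluster with 7434. Rich clusters had shallower cells, with medians of 1877.5 and 2855.5 UMIs in the endothelial pair and 2799.5 and 5216 in the fibroblast pair. What the Malat1 split stands for was not tested.

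**Figure D4:**
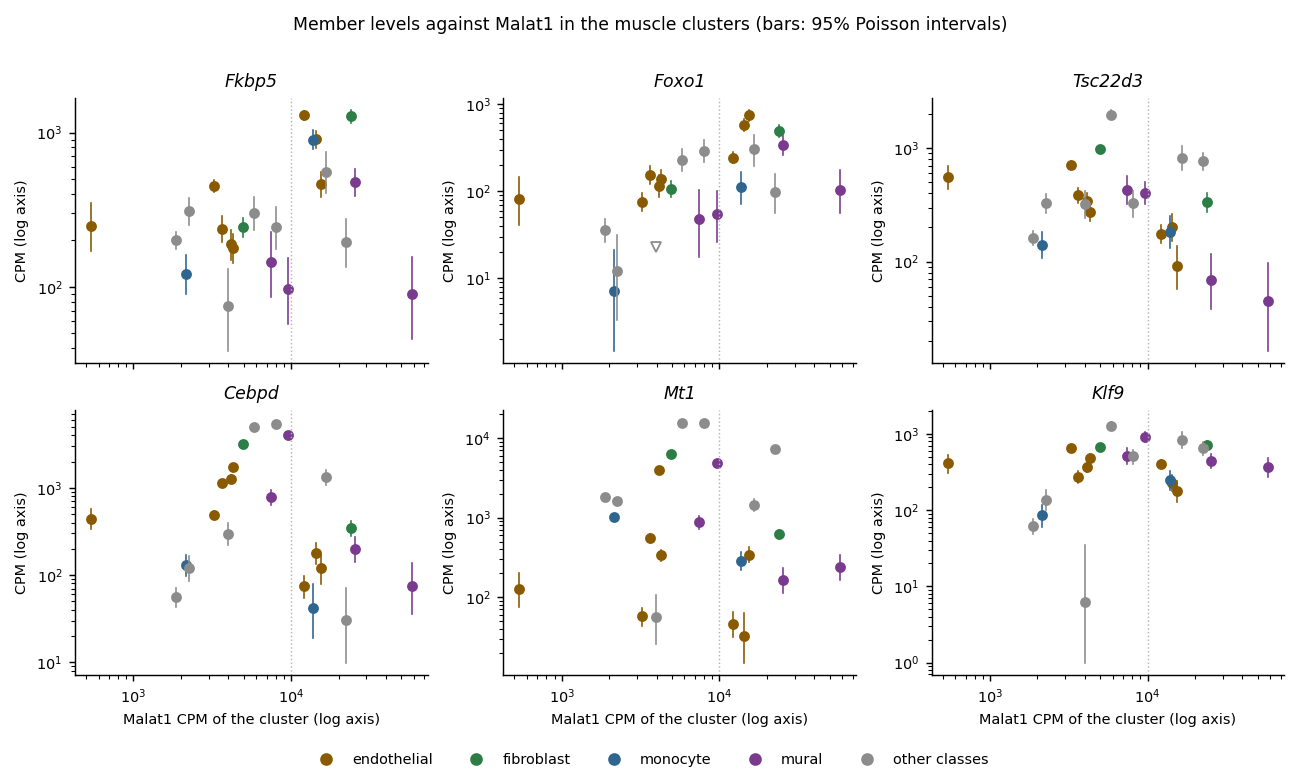
Member level against Malat1 level in CPM (both log axes) for the muscle clusters, coloured by class, with 95% Poisson intervals and a dotted line at 10000 CPM of Malat1. The open triangle is the upper limit of a cluster with no UMI. Fkbp5 reaches 1292 CPM and Foxo1 741 CPM right of the line, where Cebpd of the fibroblasts is at 344 CPM against 3169 CPM on the left.

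Between tissues, each class with at least 20 cells in both libraries was compared, muscle over lung, and 15 of 50 values were called higher and 6 lower. Of all genes tested, 1.57% to 9.44% were called higher and 4.65% to 14.3% lower, depending on the class. Tissue, library, depth and the mix of cells in a class cannot be told apart here. Endothelial cells had 8 members called higher and none lower (9.44% and 4.65% of genes), with a median difference of 1.61 over the members and -0.06 over all genes tested. Mt1 differed by 2.83, Tsc22d3 by 2.70 (2.08 to 3.39), Mt2 by 2.63, Klf9 by 2.11 (1.63 to 2.64), Cebpd by 1.62, Fkbp5 by 1.60, Sgk1 by 1.37 and Per1 by 1.12. Tsc22d3 was at 391 CPM in muscle, against 60.4 CPM in lung endothelium, and Klf9 at 435 and 101 CPM. The lung side held only 39 cells after CD45 selection, with 30 Mt1, 8 Mt2, 21 Tsc22d3 and 35 Klf9 counts. An Mt1 UMI was found in 8.11% of thinned lung endothelial cells, near the capillary share of 6.38%. The Mt1 and Mt2 values are therefore also read as a distance from a background level. Of the 2293 muscle Mt1 counts, 1756 lay in arterial cells. Muscle capillary cells, at 57.1 CPM of Mt1, were not above lung endothelium, at 86.2 CPM. Stress genes were at 15627 CPM in muscle endothelium and 4473 CPM in lung endothelium, with 16 of 20 called higher, and their part was not tested.

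Only Tsc22d3 and Klf9 of those 8 kept their call in every alternative that gave a value. The Mt1 difference was 0.37 at a limit of 5% mitochondrial UMIs and 0.01 at resolution 2, and that of Mt2 was 0.51 and 0.17 there. The Fkbp5 difference was 0.76 without the Malat1-rich clusters, and that of Cebpd was 0.73 at a limit of 20% mitochondrial UMIs. In cluster 5 alone, the main endothelial cluster with 598 muscle and 24 lung cells, Tsc22d3 differed by 3.01, Klf9 by 2.48 and Cebpd by 2.17, and 7 of 10 members were called higher (9.32% of genes) and none lower (4.66%).

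Monocytes had Fkbp5 (1.38, 1.17 to 1.58) and Tsc22d3 (1.03) called higher in muscle and Mt2 (-2.19), Sgk1 (-1.64, -2.10 to -1.22) and Mt1 (-1.24) lower, against 4.15% and 5.36% of genes. Sgk1 was at 70.6 CPM in muscle, against 220.2 CPM in lung monocytes, and Mt1 at 762 and 1801 CPM. In lung only 4 of the 8 monocyte markers were up in this class, with Ly6c2, Plac8, Ms4a4c and Cx3cr1 not up. The Tsc22d3 call was lost in 2 alternatives (0.76 and 0.87), the Mt1 call in 3 (-0.42 to -0.95) and the Mt2 call with the members among the clustering genes (-1.11). The Mt2 value rests on 29 muscle counts, and 65.8% of the lung counts lay in the 5% of cells with the most. After thinning, Mt2 was found in 8.33% of muscle and 10.6% of lung monocytes. The class held 2 clusters. In the Malat1-poor one Fkbp5 was at 121 CPM in muscle, against 110 CPM in lung, and was not called (0.14), and in the Malat1-rich one it was at 898 and 333 CPM and was called higher (1.43). The rich cluster held 39 of the 87 muscle cells and 147 of the 1038 lung cells. At a limit of 20% mitochondrial UMIs the Fkbp5 difference was 0.31. Sgk1 was lower in muscle in both clusters, by -1.04 and -3.86, and Mt1 was called lower in the poor cluster (-1.06) and not called in the rich one (-0.35). These comparisons within clusters were chosen after the data were seen, and 0.853% of genes were called higher and 5.75% lower in the poor cluster, against 3.85% and 11.2% in the rich one.

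Neutrophils differed in 1 member, Mt1, at 73.6 CPM (16 counts) in muscle and 429.8 CPM in lung, a difference of -2.55 (-3.35 to -1.84), where 1.98% of genes were called higher and 11.5% lower. Within the Retnlg-led cluster that held 41 of the 59 muscle neutrophils the difference was -2.36, with 9 muscle counts, where 2.53% of genes were called higher and 9.49% lower. Per1, highest in these cells, was at 299 CPM in muscle, against 233 CPM in lung, an interval of -0.02 to 0.72 on the log2 scale. Macrophages had no member called higher (1.57% of genes) and Sgk1 (-1.66, -2.39 to -0.996) and Per1 (-1.08) lower (7.96%). The Sgk1 value rests on 20 muscle counts, and 50.7% of the lung counts lay in the 5% of cells with the most. After thinning, Sgk1 was found in 9.30% of muscle and 8.92% of lung macrophages, so the share of cells did not differ as the level did. Tsc22d3 stood just under the 2-fold limit, at 0.99 (0.64 to 1.34), and remained uncalled in 7 of 12 alternatives, with values up to 1.73. The Per1 value rests on 12 muscle counts, was lost in 6 other settings and was 0.27 where the members were among the clustering genes.

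Dendritic cells had 5 members called higher in muscle and none lower, against 6.28% and 14.3% of genes. Mt2 differed by 3.79 (3.10 to 4.57), at 217 CPM in muscle, against 15.7 CPM in lung, Klf9 by 2.23, Mt1 by 1.95 (1.81 to 2.09), Tsc22d3 by 1.15 and Cebpd by 1.09. The class did not hold the same cells in the 2 tissues. Clec9a was at 24.3 CPM in muscle, against 210.4 CPM in lung, Flt3 at 32.4 and 231, C1qa at 366 and 8.73, and Ccr2 at 474 and 91.7, and the 8 macrophage markers summed to 2449 CPM in muscle and 375 in lung. In muscle that sum and the 2121 CPM of the 8 monocyte markers were above the sums of conventional DC2 markers (2070) and DC1 markers (898), which goes against the name on the muscle side, whereas in lung the DC2 and DC1 sums were 3004 and 3981 CPM and the monocyte sum 941. The part of that mix in the member differences was not tested. The Klf9, Tsc22d3 and Cebpd calls were lost in at least 1 setting each, while those of Mt1 and Mt2 were kept.

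**Figure D5:**
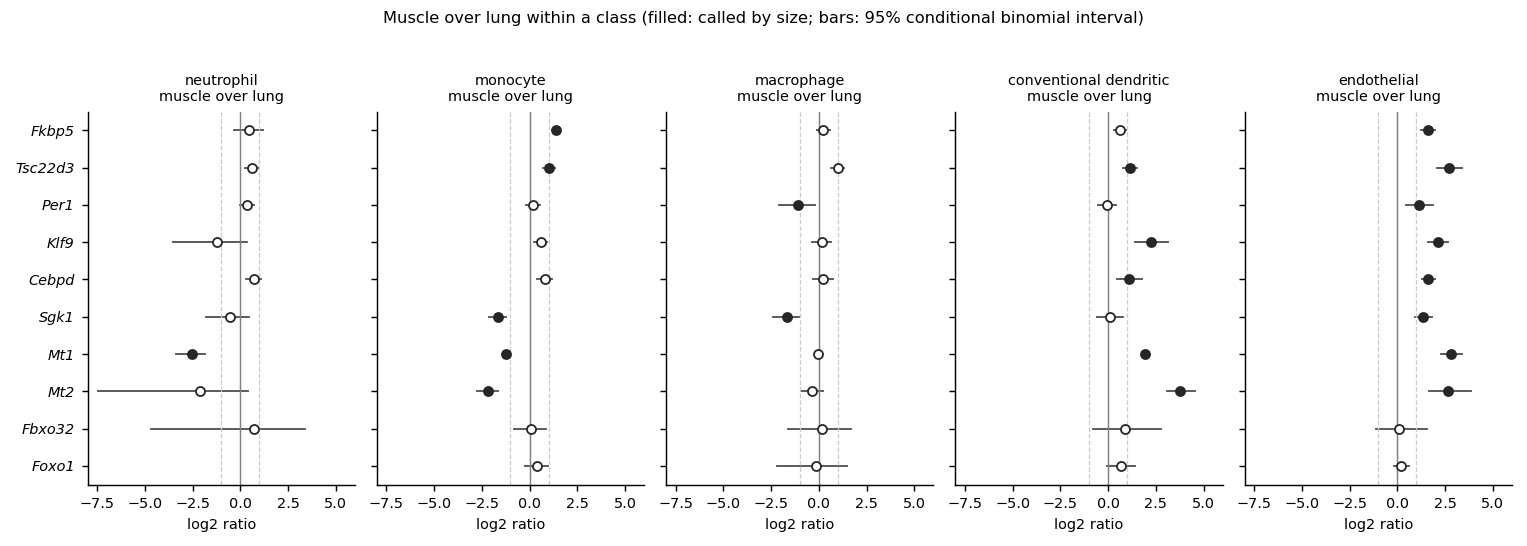
Log2 ratio of member CPM in muscle over lung within 5 classes, with 95% conditional binomial intervals. Filled points were called by size, dashed lines mark 2-fold, and Foxo1 in neutrophils is left out because the muscle cells held no UMI. The metallothioneins lie to the right in dendritic and endothelial cells, at 1.95 to 3.79, and to the left in monocytes and, for Mt1, in neutrophils. The dendritic class did not hold the same cells in the 2 tissues.

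The receptor and the enzymes that activate the hormone were measured in the same cells. Nr3c1, the glucocorticoid receptor gene, was at 64.1 CPM in satellite cells, 156 in fibroblasts, 183 in tenocytes and 168 in pericytes, and at 257 CPM in pooled muscle endothelium. It was called lower in satellite cells (-2.003, 11 counts), in leukocytes (-1.62) and in venous over capillary cells (-1.24). Hsd11b1, which regenerates active hormone inside cells, was at 317 CPM in fibroblasts (374 counts) and 204 CPM in satellite cells, against 0.801 CPM in endothelium (3 counts), a log2 difference between 7.07 and 10.92 in fibroblasts. It was the only gene of its list of 8 tested called higher in fibroblasts (13.1% of all genes). With Ncoa1 and Nr3c2 it was 1 of 3 called higher in satellite cells (3.52%).

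The other hormone-responsive genes did not move as a block. In fibroblasts 11 of 31 tested were called higher, led by Ccn2, Glul and Cebpb, and 12 lower, led by Nfkbia, Cdkn1a and Rgcc (13.1% and 16.3% of all genes), and in satellite cells 6 of 31 were higher and 12 lower (3.52% and 15.1%). In muscle over lung endothelium 17 of 29 were higher, led by Nfkbia, Rgcc and Cdkn1a, and 2 lower (9.44% and 4.65% of all genes), with a median of 1.18 over the list and -0.06 over all genes tested. In monocytes 4 of 28 were higher in muscle, among them Txnip, Bcl6 and Zbtb16, and 6 lower (4.15% and 5.36%). Zbtb16 was at 146 CPM in muscle monocytes and 6.95 CPM in lung monocytes, a difference of 4.39, and 40 counts were found in muscle dendritic cells against 1 in lung ones. Myofibre genes, which leukocytes should lack, summed to 229.8 CPM in muscle leukocytes and 6.66 CPM in lung ones, and the part of free RNA in these values was not tested.

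Among the 17 or 18 relatives of the members that were tested, Cebpb was called higher in fibroblasts, tenocytes, pericytes, satellite cells and leukocytes, and Klf2 lower in all 6 classes over endothelium. Mt3, the neural metallothionein, was called higher in Schwann cells, at 1459 CPM against 3.74 CPM in endothelium. Of 30 or 31 tested ligase, FoxO and autophagy genes, 7 were called higher in fibroblasts, among them Cblb and Foxo3, and 3 lower (13.1% and 16.3% of all genes). In satellite cells 6 were higher, among them Sqstm1 and Foxo3, and 1 lower (3.52% and 15.1%), and in leukocytes 2 were higher and 7 lower (16.1% and 27.8%). Of 16 tested clock genes, 1 was called higher and 13 lower in leukocytes over endothelium, led by Rora, Clock and Nr1d2 (16.1% and 27.8%). In muscle over lung endothelium 6 of 15 were higher, led by Rora, Nr1d2 and Nr1d1, and none lower (9.44% and 4.65% of all genes). The metal handling genes were read in the comparisons where Mt1 and Mt2 were both called higher. In pericytes none of 13 tested was higher and 6 were lower (4.29% and 13.5% of all genes). In tenocytes none was higher and 1 lower (3.58% and 17.7%). In fibroblasts 3 were higher, namely Slc39a7, Slc39a6 and Srxn1, and 2 lower (13.1% and 16.3%). In satellite cells 1 of 13 was higher and 3 lower (3.52% and 15.1%). In Schwann cells 1 of 14, Mt3, was higher and 4 lower (7.05% and 14.2%). In arterial over capillary cells 3 of 10 tested were higher, namely Txnrd1, Gclc and Hmox1, and none lower (12.9% and 13.9%). In venous over capillary cells 2 of 11 were higher and 1 lower (5.63% and 11.3%). In muscle over lung endothelium 5 of 13 were higher, led by Slc39a14, Hmox1 and Gclc, and none lower (9.44% and 4.65%). In muscle over lung dendritic cells 2 of 10 were higher and none lower (6.28% and 14.3%).

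Across 26 class profiles of both libraries, which share libraries and differ in depth, Mt1 and Mt2 had the closest levels on the log2(CPM + 10) scale (Pearson r = 0.93), followed by Klf9 and Cebpd (0.84). Fkbp5 (0.71), Foxo1 (0.69) and Fbxo32 (0.65) were each closer to Zbtb16, which is no member, than to any member. Zbtb16 was closer still to Klf9 (0.82) and Cebpd (0.81). Per1 reached 0.44 at most with a member. Among 5320 other genes the closest to Klf9 were Pkd2 (0.92), Rusc2 (0.91) and Thra (0.90), and the closest to Cebpd were Jun (0.88), Egr1 (0.88) and Rhoj (0.87). Foxo1 was closest to Zfp280d, Ahdc1 and Zbtb20 (0.89 to 0.91), and Fkbp5 to Jade2, Rasa1 and Agmo (0.82 to 0.84). Tsc22d3 was closest to Txnip, Rsrp1 and Rabac1 (0.77 to 0.81), Per1 to Ccnl2, Chaserr and Coq10b (0.77 to 0.81) and Sgk1 to Ctsl, Pald1 and Klf4 (0.73 to 0.77). Mt1 was closest to Ltbp3, Lpar1 and Sdc4 (0.71 to 0.74), Mt2 to Nfix, Ogn and Glul (0.76 to 0.78) and Fbxo32 to Map2, Ppp1r12b and Nhs (0.83 to 0.84). These values describe likeness of level over the profiles and carry no test.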

How the data were processed

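The data were 2 10x 5' single-cell libraries, one per tissue. Per the submitters' processing notes, reads were processed with Cell Ranger 7.0.1 on build GRCm39. The deposited matrices hold whole-number UMI counts per gene and barcode, not normalized, per the file headers. Whether intronic reads were counted is not given in the sources used here. No barcode held fewer than 500 UMIs, so free RNA could not be profiled and the planned subtraction was not run.

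Barcodes that showed 200 or more genes and no more than 10% of UMIs from the 37 mitochondrial genes were kept. Doublets were scored against 2 simulated doublets per cell and removed at 0.8% per 1000 cells. Cells were clustered jointly on 2000 variable genes without the members and lists, with 30 components, 15 neighbours and Leiden resolution 1. The tools were Python 3.11.15, numpy 2.4.6, scipy 1.17.1, scikit-learn 1.9.0, leidenalg 0.10.2, igraph 0.11.9 and matplotlib 3.10.9. The resulting 33 clusters were named from marker lists, and clusters that no list named stayed unnamed.

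Counts were summed over the cells of a class and scaled to the total UMIs of the class (CPM), with exact Poisson intervals for levels, Clopper-Pearson intervals for shares and conditional binomial intervals for ratios. A group at 0 was bounded against 3 counts. The ratio step was run on simulated Poisson counts with known changes. Those counts have no spread between cells, so the run checks the arithmetic and not how far the calls depend on such spread. The alternatives were other totals, equal weights of cells, mitochondrial limits of 5% and 20%, no doublet removal, resolutions 0.5 and 2, members among the clustering genes, cells of at least 1000 UMIs, a ratio of 4, a minimum of 10 counts, shares thinned to 500 UMIs and, chosen after the data were seen, clusters under 10000 CPM of Malat1 only.

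The members and the 7 wider lists were chosen with earlier results of these data known. All members are named, and from each list up to 3 called genes with the most counts in each direction, apart from a gene that is not reported here. Nr3c1 and Zbtb16 are also given by class or cluster outside that rule. For each member the 3 genes with the most similar profile are named.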

Additional observations from a re-analysis of the deposited data

Results flagged for a closer look

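The members Per1, Sgk1, Mt1 and Mt2 were called in opposite directions between the tissues in different classes, muscle over lung, and none of these differences between classes was tested. Per1 differed by 1.12 on the log2 scale in endothelial cells and by -1.08 in macrophages, where it rests on 12 muscle counts. Sgk1 differed by 1.37 in endothelial cells, by -1.66 in macrophages and by -1.64 in monocytes. Mt1 differed by 1.95 in dendritic cells and 2.83 in endothelial cells, and by -1.24 in monocytes and -2.55 in neutrophils. Mt2 differed by 3.79 in dendritic cells, by 2.63 in endothelial cells and by -2.19 in monocytes. Several of these calls were lost in other settings. Endothelial Mt1 was 0.37 and 0.01, endothelial Mt2 0.51 and 0.17, endothelial Per1 0.95 and endothelial Sgk1 0.96, monocyte Mt1 lay between -0.42 and -0.95, monocyte Mt2 was -1.11 and macrophage Per1 reached 0.27. The calls of Mt1 and Mt2 in dendritic cells, of Mt1 in neutrophils and of Sgk1 in macrophages and monocytes were kept in each alternative at the 2-fold rule that gave a value. The dendritic class did not hold the same cells in the 2 tissues, and no alternative was made to match them. Sgk1 in macrophages rests on 20 muscle counts, and its thinned share of cells was 9.30% in muscle and 8.92% in lung.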

How the results depend on the processing

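Of the 66 called values, 39 kept their call in each of the 11 alternatives that gave a value for them, leaving aside the stricter ratio. These were 24 of 32 in muscle classes over endothelium, 8 of 13 between endothelial subtypes and 7 of 21 in muscle over lung. The 7 were Klf9 and Tsc22d3 in endothelial cells, Mt1 and Mt2 in dendritic cells, Mt1 in neutrophils, and Sgk1 in macrophages and monocytes. With at most 5% mitochondrial UMIs, members called higher in muscle classes numbered 7 in place of 21. There only 3 of the 6 comparisons kept enough cells, and those 3 also lost Fbxo32 in fibroblasts (0.17), Klf9 in pericytes (0.72) and Mt1 in leukocytes (0.83). At resolution 0.5 only 3 of the 5 tissue comparisons could be made, with 8 members higher in place of 15 and 3 lower in place of 6. With members among the clustering genes, 3 were lower in muscle over lung, and Per1 in macrophages reversed, at 0.27 against -1.08, and the cause was not tested. A ratio of 4 left 13 higher and 6 lower in muscle classes, 0 lower between endothelial subtypes, and 6 higher and 2 lower in muscle over lung. No paired analysis was possible because each tissue had 1 library, and leaving out a replicate was not possible for the same reason. The subtraction of free RNA was not run. Fbxo32 is limited by depth, with 23 counts in satellite cells and 1 in muscle neutrophils.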

Other observations

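Among the 3301 muscle barcodes over the mitochondrial limit, members stood at other levels than in the barcodes that passed. Mt1 was at 610 CPM in them and 2179 CPM in passing barcodes, Cebpd at 261 and 985 CPM, Tsc22d3 at 155 and 419 CPM, Fkbp5 at 322 and 411 CPM, and Fbxo32 at 39.2 and 26.4 CPM. An unnamed muscle endothelial cluster of 133 cells, led by Tnfsf9, Cxcl1, Egr1 and Fosb, held Cebpd at 1740 CPM, above the 1145 CPM of venous cells.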
